A study of Sus scrofa with 18 samples.

Results

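RNA in the serum of pigs, the fluid left after blood has clotted, was examined for the transcripts of red cells, of heme synthesis and of the clearance of free heme and hemoglobin. A set of 34 genes was named, and the rows of the count table whose symbol equals a name were taken, which gave 33 of the 31908 genes in the table. Haptoglobin (HP) has no row under its symbol. Of the 33, the red cell genes ALAS2 and KEL have 0 reads in every library, and the other 31 genes passed the minimum of 5 reads in total and were tested. The animals were 6 female Danish Landrace pigs aged 5 months, all under anesthesia. Each was bled at Baseline, in cardiogenic shock (CS) brought on by microspheres injected into the left main coronary artery, and during support of the ongoing shock with an Impella CP pump, a percutaneous ventricular assist device (pVAD). Replicate numbers 1 to 6 name the same 6 animals at each time point. No animal went without shock, and the time points come in the same order in every pig, so the condition, the time under anesthesia and repeated sampling cannot be told apart. All values below come from 17 libraries (6 Baseline, 5 CS, 6 pVAD) without CS replicate 6.

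Mature red cells have no nucleus but keep remnants of the RNA with which reticulocytes make hemoglobin. Heme is built in a chain of enzymatic steps that begins and ends in mitochondria, under the control of the erythroid factors GATA1, TAL1 and KLF1, while band 3, spectrin and ankyrin hold up the cell membrane. When red cells break, as they can in the blood stream of a rotary pump, haptoglobin and hemopexin bind the released hemoglobin and heme, the macrophage receptor CD163 takes up the hemoglobin complex, and heme oxygenase degrades heme.

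Libraries held 18229243 to 71488943 counts, and CS replicate 6, with 2484066, held 198 reads of HBB, 3 of SPTB, 2 of ANK1 and none of the other genes of the set. Levels are CPM, counts relative to library size after scaling with TMM factors, which correct for uneven library composition. Directions within animals are those of these scaled levels unless stated otherwise. The lowest factors were 0.307 in CS replicate 4 and 0.454 in pVAD replicate 6. In CS replicate 4 the 4 most abundant transcripts took 71.5% of the counts, and in the other 16 libraries 24.2 to 57.6%. The beta globin gene HBB took 0.0110 to 0.0944% of the counts of a library. Beside the 0 reads of ALAS2, the erythroid form of the first enzyme of heme synthesis, and of KEL, the Kell blood group protein, the alpha globin row also had 0 reads. Over all 17 libraries, 3 reads would be a level of 0.00439 CPM before TMM scaling, the limit that a count of 0 allows for counting error alone. How the annotation or the counting bears on these rows was not tested, and the limit covers counted reads only. Of 20860 protein-coding rows, 11.0% have 0 reads in all 18 libraries.

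Of the 31 genes, 1 was called between time points. The edgeR quasi-likelihood test (two-sided) called a gene when its p without adjustment was below 0.05 and its level differed by more than 1.5-fold. In CS vs. Baseline the test called 0 of 31 genes (0 at unadjusted p below 0.05 alone, 1 by DESeq2), where 2.82% of the 26146 genes tested were called, 1.59% higher and 1.24% lower. For pVAD vs. CS 1 of 31 genes was called, the mitochondrial iron importer SLC25A37, which fell. That is 3.23% of the set against 2.43% of all genes, 1.11% of them higher and 1.32% lower. On pVAD vs. Baseline 0 of 31 genes were called (0 at unadjusted p below 0.05 alone, 0 by DESeq2), against 0.834% of all genes, 0.444% higher and 0.39% lower. Without the 2 libraries of lowest TMM factor pVAD vs. CS called 3 of the genes, SLC25A37, SLC25A38 and ACKR1. The smallest Benjamini-Hochberg adjusted p of all genes tested in these edgeR comparisons was 1, 0.999 and 1. The comparisons share libraries, since the CS libraries serve the first and the second and the pVAD libraries the second and the third.

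The median change of the set lay close to 0 in each comparison. In CS vs. Baseline 22 genes lay above 0 and 9 below, with a median log2 change of 0.064 and a range of -1.65 to 0.70, where the median of all genes tested was -0.0049. In pVAD vs. CS 13 lay above and 18 below 0 (median -0.072, range -0.70 to 1.52, median of all genes 0.018), and in pVAD vs. Baseline 16 above and 15 below (median 0.0044, range -0.39 to 0.60, median of all genes 0.014). The 95% interval of the change stayed within a 2-fold change either way for 21, 19 and 21 of the 31 genes. For the rest, a change of 2-fold lay within the interval. The libraries of both time points overlapped for every gene in every comparison. Levels are relative, and a lower level in serum cannot be assigned here to cell number, RNA per cell, or release and breakdown of RNA. The authors consider that most mRNA in serum probably stems from degrading cells of unknown origin.

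**Figure D1:**
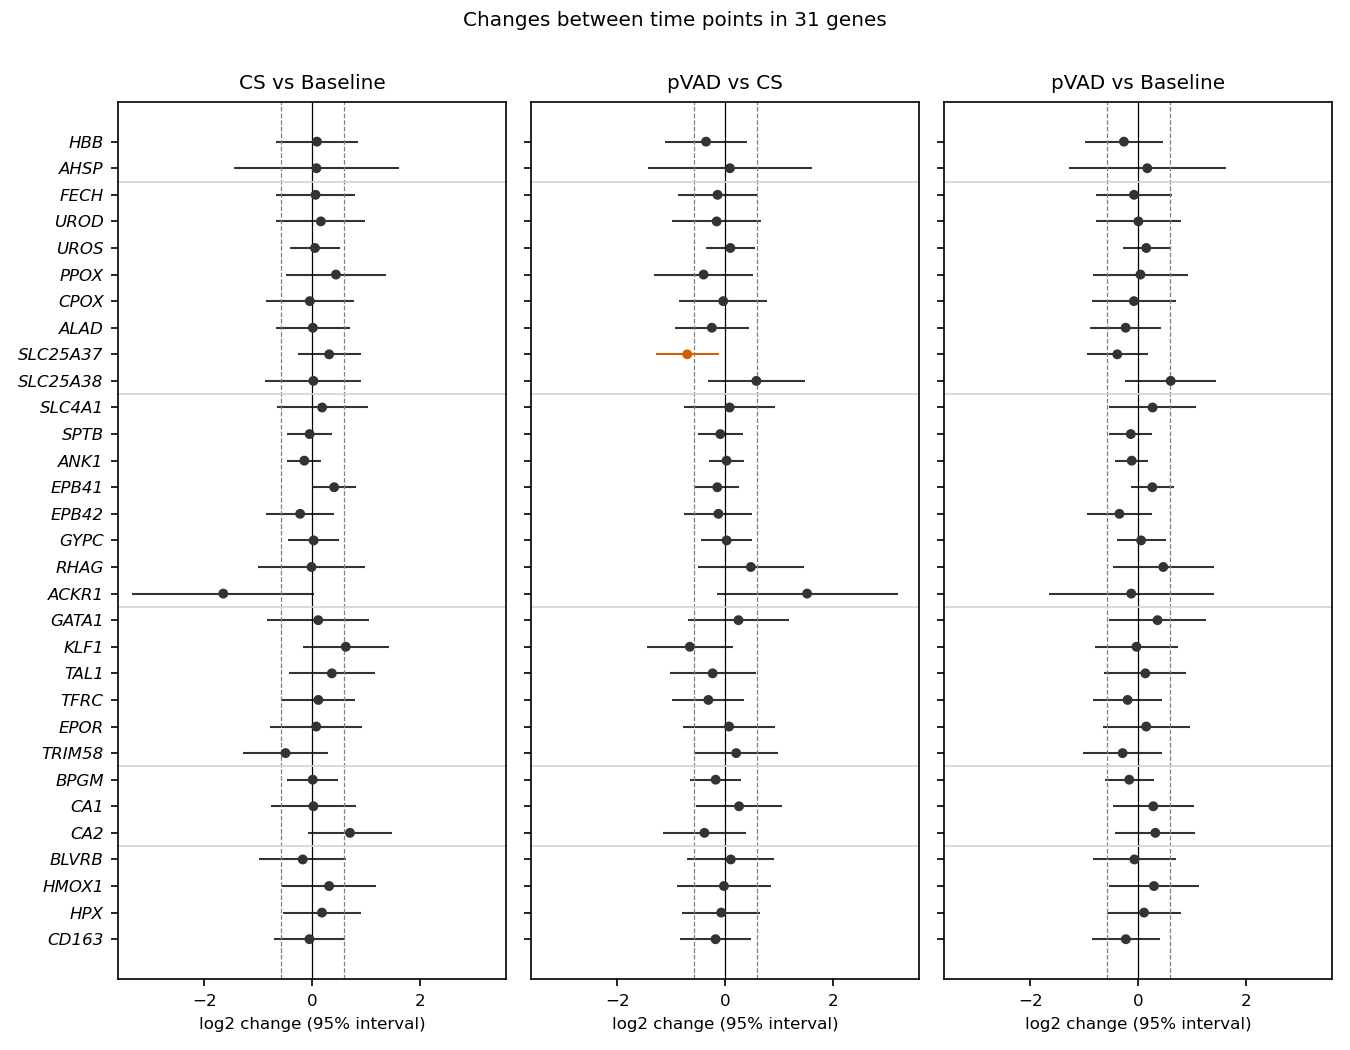
Fitted log2 change (points) with its 95% interval (lines) for each of the 31 genes tested in the 3 comparisons between time points, with the roles separated by grey lines. Dashed lines mark a 1.5-fold change, and the only called gene, SLC25A37 in pVAD vs. CS at -0.70, is drawn in orange.

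HBB, the beta chain of hemoglobin (ENSSSCG00000014725), stood at 407, 270.5, 405, 257, 776 and 265 CPM in Baseline replicates 1 to 6. In CS replicates 1 to 5 it stood at 290.0, 311, 438, 358 and 712 CPM, and in pVAD replicates 1 to 6 at 192, 208, 294, 146, 711 and 432 CPM. Replicate 5 was the highest at every time point and the other libraries ranged from 146 to 438 CPM, so the time points overlapped. From CS to pVAD HBB was lower in all 5 animals with both libraries, but the change of -0.35 (SE 0.36, interval -1.11 to 0.40) was not called. With the animal as a block the change was -0.50 (SE 0.19), which passed the threshold on p but not the 1.5-fold threshold. Without pVAD replicate 5 it was -0.73 and called. Before TMM scaling, the HBB share of counts rose from CS to pVAD in replicates 1 (0.0243 to 0.0270%), 3 (0.0405 to 0.0443%) and 4 (0.0110 to 0.0225%). That share fell in replicates 2 (0.0464 to 0.0283%) and 5 (0.0944 to 0.0661%), so the direction in single animals depends on the TMM factors. In CS vs. Baseline HBB differed by 0.090 (SE 0.36), and on pVAD vs. Baseline by -0.26 (SE 0.35), lower in 5 of 6 animals and not called. Blocked by animal, the change on pVAD vs. Baseline was -0.36 (SE 0.17, interval -0.72 to -0.0023). It too passed the threshold on p but not the 1.5-fold threshold.

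AHSP, the chaperone that keeps free alpha globin soluble, measured 1.86, 6.59, 2.11, 1.09, 9.99 and 0.305 CPM at Baseline, 5.87, 2.39, 2.79, 0.455 and 7.53 CPM in CS and 5.27, 4.47, 3.06, 1.29, 9.60 and 0.640 CPM on pVAD, in the order of replicates. Replicate 5 was again the highest at every time point, replicates 4 and 6 the lowest, and the time points overlapped. Its fitted changes were 0.080 in CS vs. Baseline, 0.089 in pVAD vs. CS and 0.17 in pVAD vs. Baseline, with an SE of 0.74, 0.73 and 0.70, and none was called. A second beta globin row, described in the files as hemoglobin subunit beta-like, lies outside the set and was looked at after its values were seen, because reads of near-identical globin genes can be split between rows, which leaves the level of HBB uncertain. It averaged 48.6 ± 40.4 CPM at Baseline (SD, n = 6), 33.7 ± 32.99 CPM in CS (n = 5) and 60.6 ± 85.4 CPM on pVAD (n = 6), and it too was highest in replicate 5 at every time point.

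Of the genes for heme synthesis and the import of its mitochondrial substrates, 1 of 8 tested fell and 0 rose in any comparison. SLC25A37, mitoferrin-1 (ENSSSCG00000033037), which carries iron into the mitochondria of developing red cells, stood at 21.2, 19.7, 18.3, 23.3, 27.1 and 13.7 CPM at Baseline. It measured 51.3, 15.4, 20.5, 15.7 and 24.9 CPM in CS and 18.95, 18.4, 16.05, 14.9, 17.3 and 8.47 CPM on pVAD. CS replicate 1 was more than 20 CPM above every other library of the gene, and on pVAD every animal was below its own Baseline in scaled level. Before TMM scaling, the share on pVAD was above Baseline in replicates 1 and 2 and below it in replicates 3 to 6. Replicate 1 had 842 reads in 40868806 counts at Baseline and 1043 in 39003221 on pVAD. The change from CS to pVAD was -0.70 on the log2 scale (SE 0.28, edgeR Benjamini-Hochberg adjusted p = 0.999), with a lower level in 4 of 5 animals. It was -0.28 without CS replicate 1, -0.58 without pVAD replicate 6, -0.45 with all 18 libraries and -0.49 with the animal as a block, none of them called. The blocked change (interval -0.94 to -0.038) passed the threshold on p but not the 1.5-fold threshold. CS replicate 1 also had the highest summed neutrophil and monocyte markers of all libraries, at 182 CPM against 28.4 to 103 in the others, and the part of that in the level of SLC25A37 was not tested. Against Baseline the change on pVAD was -0.39 (SE 0.27), lower in 6 of 6 animals and not called.

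FECH, ferrochelatase, puts iron into the finished porphyrin ring. It measured 14.8, 18.9, 15.1, 13.1, 45.4 and 16.9 CPM at Baseline, 20.2, 16.8, 17.4, 10.02 and 43.3 CPM in CS and 19.4, 19.4, 13.3, 11.4, 33.3 and 20.7 CPM on pVAD, and replicate 5 lay above all other animals at each time point. The time points overlapped and the changes of 0.064, -0.14 and -0.077 (SE 0.36, 0.36 and 0.34 in the same order as the comparisons above) were not called. CPOX, coproporphyrinogen oxidase, an earlier mitochondrial step, was at 3.80, 9.58, 4.97, 4.31, 18.5 and 5.05 CPM at Baseline, 4.43, 6.08, 4.90, 7.56 and 14.2 CPM in CS and 8.61, 7.80, 5.40, 5.79, 9.77 and 6.11 CPM on pVAD. Replicate 5 was the highest of all animals at every time point here too, and the time points overlapped, although the Baseline and CS libraries of that animal lay above all pVAD libraries. UROS, which closes the porphyrin ring, had 19.02, 25.8, 16.6, 20.9, 22.7 and 11.3 CPM at Baseline, 25.5, 16.5, 18.1, 17.6 and 22.8 CPM in CS and 24.4, 30.1, 18.1, 18.2, 21.8 and 16.5 CPM on pVAD. Its lowest library was Baseline replicate 6 and its highest pVAD replicate 2, the time points overlapped, and the intervals of its changes ran from -0.40 to 0.51, -0.36 to 0.55 and -0.28 to 0.59.

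ALAD, which makes porphobilinogen, had values of 7.40, 9.72, 6.72, 12.1, 9.20 and 3.32 CPM at Baseline, 4.23, 7.03, 5.58, 12.8 and 11.1 CPM in CS and 7.76, 9.24, 6.91, 7.59, 4.24 and 5.47 CPM on pVAD. Its libraries overlapped between all time points, and its fitted changes lay between -0.25 and 0.014. UROD and PPOX, the decarboxylase and the oxidase of later steps, ranged over all libraries from 1.83 to 7.15 and from 0.711 to 5.39 CPM and were not called. SLC25A38, which brings glycine into mitochondria, averaged 4.02 ± 1.08 CPM at Baseline (SD, n = 6), 4.11 ± 2.15 CPM in CS (n = 5) and 6.12 ± 4.06 CPM on pVAD (n = 6). Its pVAD levels were highest in replicates 1 and 2, at 13.2 and 8.59 CPM, with 2.61 to 4.96 CPM in the other animals. The differences of 0.58 (SE 0.43) from CS and 0.60 (SE 0.41) from Baseline were not called.

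Of the 8 membrane and skeleton genes tested, 0 were called in any comparison. SPTB, beta spectrin of the skeleton under the membrane, had 72.6, 87.2, 65.6, 76.1, 74.8 and 43.9 CPM at Baseline, 93.3, 65.2, 65.4, 58.04 and 56.96 CPM in CS and 74.8, 75.8, 71.3, 65.04, 58.5 and 36.6 CPM on pVAD. Both libraries of replicate 6 were the lowest of all libraries of the gene, and the time points overlapped. ANK1, the ankyrin that ties spectrin to band 3, had 108, 110.2, 99.1, 101, 127 and 77.3 CPM at Baseline, 102, 85.9, 96.3, 87.7 and 96.96 CPM in CS and 99.6, 117, 95.1, 102, 84.5 and 75.5 CPM on pVAD. It was lower in CS than at Baseline in 5 of 5 animals, with a change of -0.15 (SE 0.15, interval -0.46 to 0.17) that was not called, so that a 1.5-fold change in CS lies outside its interval. EPB41, protein 4.1, which joins spectrin to actin, had 16.6, 16.7, 14.5, 15.8, 17.4 and 11.9 CPM at Baseline, 22.2, 16.9, 18.4, 28.5 and 16.9 CPM in CS and 20.2, 23.96, 16.8, 15.8, 20.6 and 14.1 CPM on pVAD. CS replicate 4 was the highest library and Baseline replicate 6 the lowest, and the time points overlapped. Its change of 0.41 in CS (SE 0.20, interval -0.0026 to 0.82) was not called, nor was that of 0.26 on pVAD vs. Baseline, where it was higher in 6 of 6 animals.

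SLC4A1, the anion exchanger band 3, measured 13.9, 15.1, 14.1, 10.1, 16.01 and 4.88 CPM at Baseline, 22.2, 9.86, 12.3, 4.60 and 21.1 CPM in CS and 26.3, 19.8, 11.9, 11.1, 16.1 and 3.69 CPM on pVAD. Replicate 6 and CS replicate 4 were low and replicate 1 was highest in CS and on pVAD, while the time points overlapped. GYPC, a membrane protein that binds protein 4.1, had 24.4, 27.6, 18.3, 24.5, 27.99 and 11.7 CPM at Baseline, 22.6, 15.98, 19.9, 29.9 and 25.9 CPM in CS and 28.3, 29.9, 19.8, 17.9, 25.2 and 18.6 CPM on pVAD. Baseline replicate 6 was its lowest library, and the time points overlapped, with fitted differences of at most 0.055 on the log2 scale. EPB42, protein 4.2, which binds band 3, had fitted differences of -0.22, -0.13 and -0.35, and RHAG, the Rh-associated glycoprotein, of -0.011, 0.48 and 0.47, in CS from Baseline, on pVAD from CS and on pVAD from Baseline. None of these was called.

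ACKR1, the Duffy chemokine receptor of red cells and venules, had the largest fitted changes of the set, both in comparisons with CS, and the fewest reads of the genes tested, and its values were looked at for that reason. It measured 1.74, 0.513, 0.683, 0.533, 1.12 and 1.42 CPM at Baseline, 0.0241, 0.239, 0.145, 0.364 and 0.804 CPM in CS and 1.84, 0.572, 0.785, 0.761, 1.41 and 0.0985 CPM on pVAD. CS was below Baseline in 5 of 5 animals and pVAD above CS in the same 5 of 5, yet the time points overlapped. The changes of -1.65 (SE 0.82, interval -3.34 to 0.042) and 1.52 (SE 0.81, interval -0.16 to 3.20) were not called and rest on the same CS libraries, with 69 reads of the gene in all. DESeq2 called both, at -1.67 and 1.52. With the edgeR test the first was called without CS replicate 5 (-2.39), Baseline replicate 2 (-1.78) or pVAD replicate 6 (-1.65), and the second without CS replicate 5 (2.26) or pVAD replicate 6 (1.75).

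Over the whole set, 3 genes lay on the same side in every animal in CS vs. Baseline (ANK1 and ACKR1 lower, CA2 higher), 3 in pVAD vs. CS (HBB and CA2 lower, ACKR1 higher) and 2 in pVAD vs. Baseline (EPB41 higher, SLC25A37 lower). The first and the second count cover 5 animals and the third 6. Among all rows with a mean level of 1 CPM or more, which 30 of the 31 genes reach and ACKR1 does not, 4.32, 4.25 and 2.34% did so. These genes were picked out after their values were seen. Unscaled shares of the counts went the other way in some animals, as for HBB above. In replicate 2, ANK1 had 3865 reads in 39363796 counts at Baseline and 3589 in 28067154 in CS, a larger share. In replicate 3, CA2 had 248 reads in 35966946 counts at Baseline and 222 in 44603792 in CS, a smaller share.

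The 6 erythroid factors and receptors were not called in any comparison. GATA1, the master factor of red cell and platelet precursors, was at 10.5, 14.3, 10.7, 9.60, 15.02 and 1.19 CPM at Baseline, 17.6, 7.92, 10.9, 6.78 and 11.9 CPM in CS and 30.1, 14.6, 8.62, 10.7, 9.21 and 5.07 CPM on pVAD. Baseline replicate 6 was the lowest library and pVAD replicate 1 the highest. TAL1, its partner in the same complex, was at 23.4, 13.5, 12.1, 9.16, 11.8 and 4.81 CPM at Baseline, 21.3, 13.5, 13.2, 11.1 and 21.2 CPM in CS and 17.01, 27.2, 12.1, 9.32, 12.7 and 3.55 CPM on pVAD, with both replicate 6 libraries the lowest. The time points overlapped for both factors, and their fitted changes ran from -0.23 to 0.37. KLF1, which switches on beta globin in red cell precursors, averaged 3.23 ± 1.27 CPM at Baseline (SD, n = 6), 4.97 ± 1.25 CPM in CS (n = 5) and 3.15 ± 1.39 CPM on pVAD (n = 6). Its changes of 0.62 (SE 0.39, interval -0.18 to 1.43) and -0.66 (SE 0.39, interval -1.46 to 0.15) were not called, and the second was -0.89 and called without pVAD replicate 1.

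TFRC, the transferrin receptor through which precursors take up iron, had 4.83, 5.16, 6.49, 5.67, 18.9 and 10.1 CPM at Baseline, 9.46, 10.4, 5.77, 8.47 and 11.8 CPM in CS and 9.16, 7.10, 6.55, 5.65, 8.54 and 7.34 CPM on pVAD. Baseline replicate 5 was the only library above 12 CPM. TRIM58, a ubiquitin ligase of late erythroblasts, had 9.56, 8.27, 8.64, 7.67, 28.8 and 12.5 CPM at Baseline, 12.7, 10.5, 5.46, 3.05 and 12.5 CPM in CS and 10.4, 9.79, 7.28, 7.18, 15.1 and 11.8 CPM on pVAD. Replicate 5 was highest at Baseline and on pVAD, and in CS replicate 1 was slightly above it. EPOR, the erythropoietin receptor, ranged from 1.52 to 8.52 CPM over all libraries with fitted differences of 0.076, 0.074 and 0.15.

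Among the red cell enzymes 0 of 3 were called. CA2, a carbonic anhydrase that is also found outside red cells, was at 5.66, 3.25, 4.71, 1.73, 5.16 and 5.79 CPM at Baseline, 6.67, 4.40, 5.38, 8.51 and 10.7 CPM in CS and 4.38, 2.33, 4.56, 4.35, 8.47 and 8.77 CPM on pVAD. It was higher in CS than at Baseline in 5 of 5 animals, and the groups overlapped. The change of 0.70 (SE 0.37, interval -0.072 to 1.48) was not called, but with the animal as a block it was 0.82 (SE 0.33) and without CS replicate 2 it was 0.84, and both were called. From CS to pVAD CA2 was lower in 5 of 5 animals, with a change of -0.38 (SE 0.37) that was not called. CA1, the carbonic anhydrase most typical of red cells, was at 5.51, 5.25, 11.8, 5.62, 11.6 and 19.3 CPM at Baseline, 10.9, 7.39, 10.4, 8.29 and 12.97 CPM in CS and 15.2, 3.22, 10.1, 9.85, 12.8 and 20.7 CPM on pVAD, with replicate 6 the highest at Baseline and on pVAD. BPGM, which makes the 2,3-bisphosphoglycerate that loosens oxygen from hemoglobin, was at 9.94, 11.5, 14.6, 9.74, 16.8 and 17.4 CPM at Baseline, 12.5, 15.1, 10.5, 12.6 and 16.3 CPM in CS and 11.9, 7.48, 11.6, 11.2, 13.6 and 15.6 CPM on pVAD, with changes of 0.011, -0.18 and -0.17.

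Of the genes that clear free heme and hemoglobin, 0 of the 4 tested were called in any comparison. HMOX1, the heme oxygenase that heme and oxidative stress induce, was at 6.29, 4.59, 4.08, 1.80, 3.11 and 2.44 CPM at Baseline, 7.60, 2.94, 6.30, 1.68 and 4.59 CPM in CS and 7.71, 6.23, 4.35, 3.41, 3.04 and 2.61 CPM on pVAD. Replicate 1 was the highest animal at every time point. The changes were 0.32 in CS vs. Baseline (interval -0.55 to 1.18), -0.022 in pVAD vs. CS (interval -0.89 to 0.84) and 0.29 in pVAD vs. Baseline (interval -0.54 to 1.12), so a 2-fold rise lies within the first and the third interval and outside the second.

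HPX, the heme carrier hemopexin, had 9.84, 9.38, 6.45, 11.9, 7.74 and 6.30 CPM at Baseline, 5.77, 6.79, 14.8, 11.97 and 9.52 CPM in CS and 13.5, 15.7, 8.52, 7.37, 7.93 and 2.61 CPM on pVAD. Its highest library was pVAD replicate 2 and its lowest pVAD replicate 6, and no change was called. CD163, the scavenger receptor of macrophages for hemoglobin bound to haptoglobin, had 5.99, 5.99, 8.64, 9.49, 10.6 and 10.3 CPM at Baseline, 13.96, 7.70, 5.79, 3.14 and 10.3 CPM in CS and 4.38, 8.25, 8.25, 8.48, 5.95 and 8.18 CPM on pVAD. CS held both its highest and its lowest library. BLVRB, a biliverdin reductase abundant in red cells, had 6.67, 10.9, 6.04, 6.58, 13.8 and 3.76 CPM at Baseline, 1.92, 5.57, 6.55, 7.28 and 13.7 CPM in CS and 10.6, 10.1, 7.64, 5.37, 6.23 and 5.32 CPM on pVAD. Its CS levels were lowest in replicate 1 and highest in replicate 5, and its changes were -0.17, 0.10 and -0.069. The haptoglobin row carries no symbol in the table and was found through its gene number in the RefSeq annotation, so it lies outside the set. HP measured 6.24, 7.04, 6.99, 6.60, 7.87 and 7.08 CPM at Baseline, 6.62, 10.9, 4.39, 6.10 and 6.25 CPM in CS and 5.49, 6.95, 8.33, 7.11, 4.93 and 4.97 CPM on pVAD, and its changes of -0.024, -0.12 and -0.14 were not called.

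Some genes of each role but clearance differed between the animals. A test of the animal in an edgeR model with the time point, added after the values were seen, called 10 of 31 genes (32.3%) at a Benjamini-Hochberg adjusted p below 0.05, against 13.4% of the 26146 genes tested. By role these were both globin genes, 2 of 8 genes of heme synthesis and import (FECH and CPOX), 2 of 8 of the membrane (SLC4A1 and SPTB), 3 of 6 factors and receptors (GATA1, TAL1 and TRIM58), 1 of 3 enzymes (CA1) and 0 of 4 for clearance. The share over all genes is not matched in level, since 30 of the 31 genes but only 20773 of all rows reach a mean of 1 CPM. The share called among those rows was not counted. The libraries of an animal carry consecutive sample numbers, so the animal and the order of handling cannot be told apart.

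**Figure D2:**
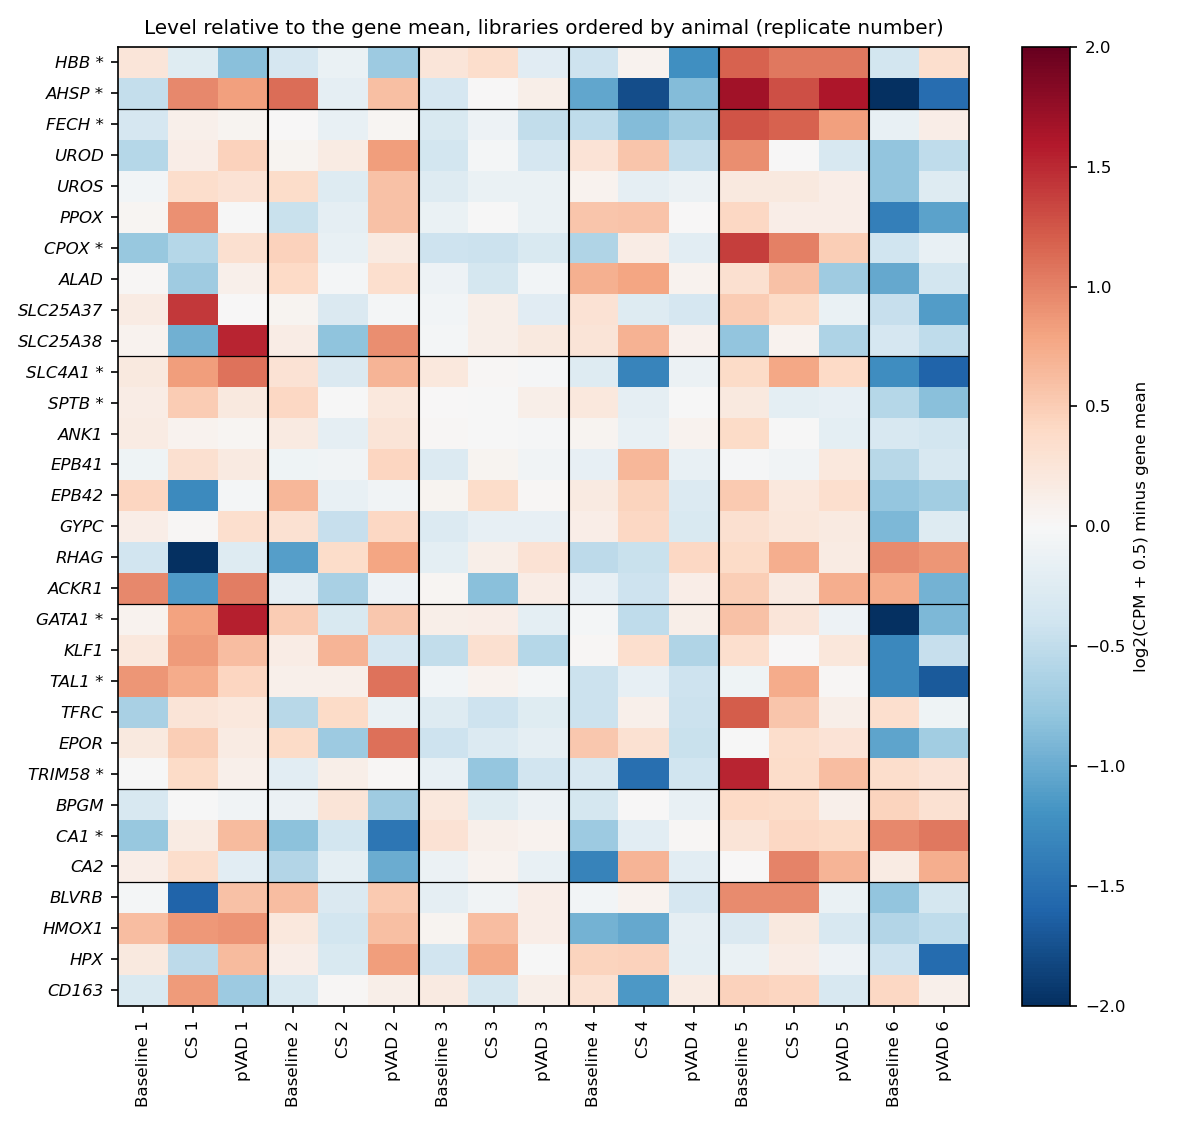
Level of the 31 genes in the 17 libraries on a log2(CPM + 0.5) scale minus the mean of the gene, with libraries ordered by animal between black vertical lines and genes by role between black horizontal lines. Stars mark the 10 genes that differed between animals, 5 of them highest in replicate 5 and 5 lowest in replicate 6.

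Of the 10 genes, 5 were highest in replicate 5 and 5 lowest in replicate 6, AHSP being both. HBB, AHSP, FECH, CPOX and TRIM58 were highest in replicate 5. Mean HBB was 296, 263, 379, 254, 733 and 348 CPM in replicates 1 to 6 (edgeR adjusted p = 5.2e-04), and mean FECH 18.2, 18.4, 15.3, 11.5, 40.7 and 18.8 CPM (edgeR adjusted p = 2.6e-04). Replicate 5 carried 2.89 times the HBB and 3.53 times the FECH of replicate 4, the lowest animal for both. Mean AHSP was 4.33, 4.48, 2.65, 0.945, 9.04 and 0.473 CPM in replicates 1 to 6 (edgeR adjusted p = 8.9e-04), a 19.1-fold span between replicates 5 and 6. The low end of that span rests on 9 reads in Baseline replicate 6 and 13 in pVAD replicate 6, so the fold is uncertain. CPOX had an edgeR adjusted p of 0.0362 and TRIM58 of 0.0160. Among replicates 1 to 5, which have all 3 libraries, 5 genes (HBB, AHSP, FECH, CPOX and BPGM) were highest in replicate 5 at all 3 time points, where 1.15% of the 20773 rows with a mean of 1 CPM or more were. HMOX1 was so in replicate 1, and no gene of the set in replicates 2, 3 or 4. Replicate 5 was singled out after its values were seen. Counting any 1 of these animals, 6 of the 31 genes had the same highest animal at all 3 time points, against 5.87% of those rows.

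SLC4A1, SPTB, GATA1, TAL1 and also AHSP were lowest in replicate 6. Mean SLC4A1 was 20.8, 14.9, 12.8, 8.60, 17.7 and 4.29 CPM in replicates 1 to 6 (edgeR adjusted p = 0.00310), and mean GATA1 19.4, 12.3, 10.1, 9.04, 12.03 and 3.13 CPM (edgeR adjusted p = 0.0101). TAL1 had means of 20.6, 18.1, 12.5, 9.85, 15.2 and 4.18 CPM (edgeR adjusted p = 0.00306), and SPTB of 80.3, 76.03, 67.4, 66.4, 63.4 and 40.2 CPM (edgeR adjusted p = 0.0235). Replicate 1 was the highest animal for all 4 of these genes. CA1 went the other way, with means of 10.5, 5.29, 10.8, 7.92, 12.4 and 19.98 CPM (edgeR adjusted p = 0.0147) and its highest level in replicate 6. Over all 31 genes, replicate 6 was the lowest animal for 19 and replicate 5 for 0, while replicate 5 was the highest for 10 and replicate 6 for 4. The same shares over all genes were not counted, so these counts cannot be read as particular to the set. The mean of replicate 6 rests on 2 libraries, none of them from CS. Of all genes tested 13.4% were called between animals, and 0.606% without replicate 6.

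**Figure D3:**
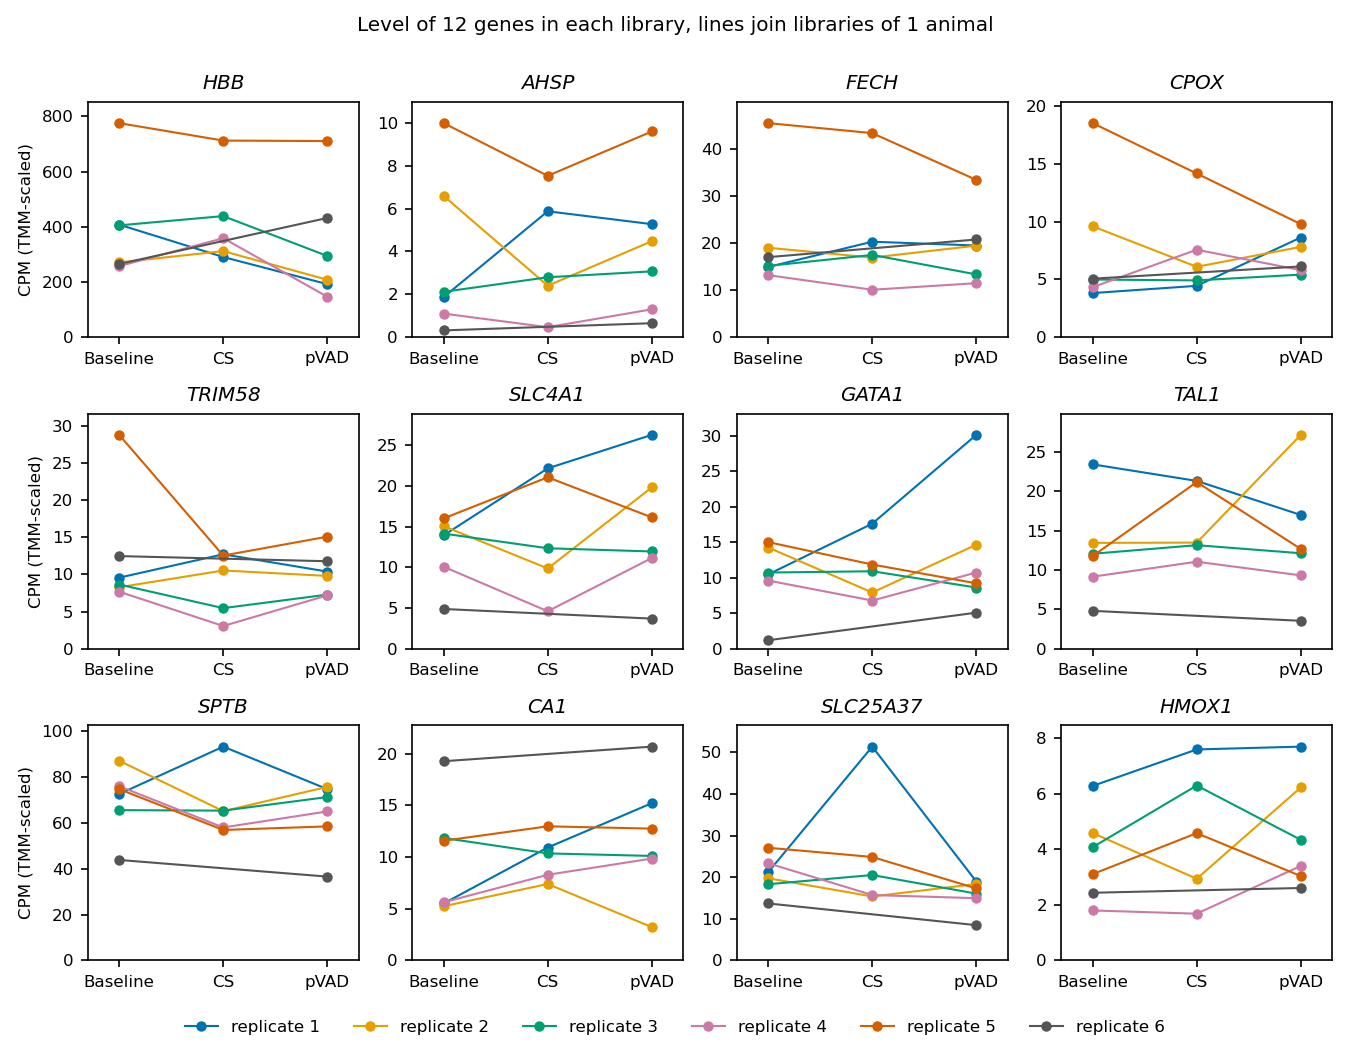
CPM of 12 genes at Baseline, in CS and on pVAD, each color and line an animal and each point a library, with the vertical axis of each panel starting at 0. Replicate 5 lies above the other animals for HBB, AHSP, FECH and CPOX at every time point, and replicate 6 lies lowest for SLC4A1, GATA1, TAL1 and SPTB.

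The count of genes that differed between animals depends on replicates 5 and 6. Without the libraries of replicate 6, 3 of 31 genes were called (HBB at 5.3e-05, FECH at 4.1e-04 and AHSP at 0.0292, edgeR adjusted p), against 0.606% of 26085 genes. Without those of replicate 5, 6 genes were called (SPTB, SLC4A1, GATA1, TAL1, AHSP and CA1), against 13.1% of 26088 genes. AHSP passed in both. With all 18 libraries, and so with the shallow CS library of replicate 6, 1 gene passed, AHSP, where 49 of all genes did. Without the 2 libraries of lowest TMM factor, 4 genes passed, HBB, FECH, GATA1 and AHSP.

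A wider list of 79 other red cell, heme and iron genes, 68 of them found and 64 tested, was called in 0 cases in all 3 comparisons of time points by edgeR (2, 0 and 0 at unadjusted p below 0.05 alone, and 1, 1 and 0 called by DESeq2). With the animal as a block edgeR called 1, 1 and 2 of them. Between animals 15 of 64 (23.4%) were called, against 13.4% of all genes tested, a share not matched in level. The count was 0 when all 18 libraries were used, 7 without Baseline replicate 6 and 9 without pVAD replicate 6. It was 6 without both libraries of that animal, where 0.606% of all genes were called. The ferritin light chain FTL, the mitophagy receptor BNIP3L, the red cell peroxidase PRDX2 and dematin, DMTN, were highest in replicate 5, with FTL at 61.1 CPM there and 15.7 to 22.8 CPM in the other animals. ZFPM1, the cofactor of GATA1, was highest in replicate 1 and lowest in replicate 6, at 27.6 and 2.92 CPM.

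Some markers of other cells that serum RNA could come from moved with the animals. Summed over 6 platelet genes, levels ran from 46.1 to 115 CPM, apart from 196 CPM in pVAD replicate 6. The 9 neutrophil and monocyte genes ran from 28.4 to 182 CPM and were lowest in both libraries of replicate 6. Lymphocyte genes ran from 29.9 to 71.5 CPM, apart from 497 CPM in CS replicate 4 and 156 CPM in pVAD replicate 6. Hepatocyte genes ran from 62.7 to 101 CPM and cardiomyocyte genes from 32.8 to 105 CPM, the latter again lowest in replicate 6. Between animals 3 of 6 platelet, 3 of 9 neutrophil and monocyte, 2 of 7 lymphocyte, 0 of 7 hepatocyte and 2 of 6 cardiomyocyte genes were called. Of all genes tested 13.4% were called between animals, and the lists are so short that single genes weigh heavily in these counts. In replicate 5, whose HBB was highest, platelet markers averaged 75.4 CPM and hepatocyte markers 77.0 CPM, within the range of the other animals. The part of these cells in the levels of the red cell genes was not tested. Between time points, the platelet marker GP9 was called lower on pVAD than at Baseline, the lymphocyte marker CD3D was called higher in CS than at Baseline and lower on pVAD than in CS, and no marker of the other lists was called. The markers GP1BB, FCGR3A, CD79A, FGA and FGB have 0 reads, and PF4, MYH6 and NPPA were not matched by symbol.

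**Figure D4:**
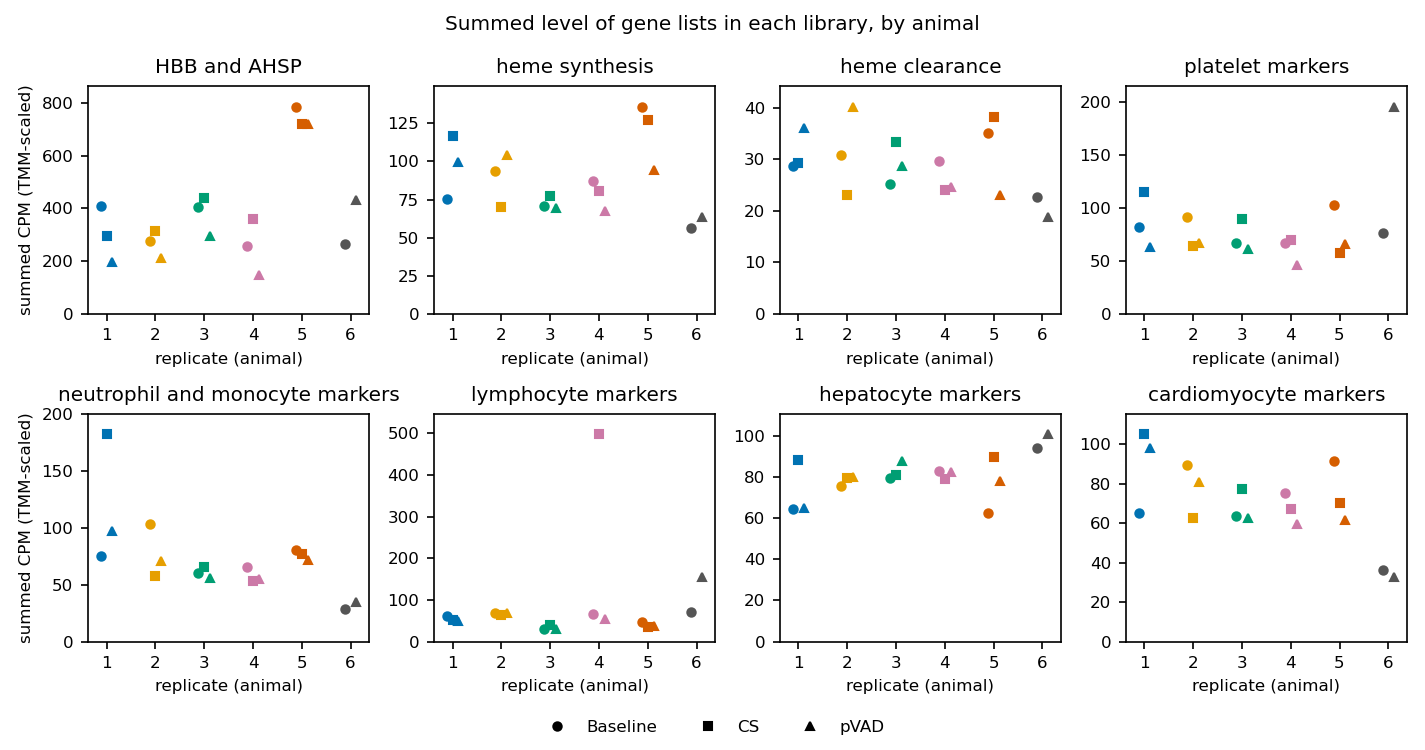
Summed CPM of the globin pair HBB and AHSP, of the heme synthesis and heme clearance genes and of 5 marker lists in each library, against the animal, with symbols for the time points and axes starting at 0. The globin sums of replicate 5 lie above those of all other animals, the lymphocyte sum of CS replicate 4 stands at 497, and the platelet sum of pVAD replicate 6 at 196.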

How the data were processed

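Serum RNA of 6 pigs at 3 time points was sequenced from 100 ng of total RNA. The authors trimmed reads with Trim Galore 0.4.4, aligned them with STAR 2.4.2a to the pig genome and counted them per Ensembl gene with R 3.6.0. The genome build is not given in the sources used here, so no coordinates are given. The deposited values are raw counts without normalization, 18229243 to 71488943 per library, and CS replicate 6 was left out, as the study did. No gene length was used, so levels are not compared between genes.

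Genes with at least 5 reads in total (26146) entered a single edgeR 4.0.16 fit of 17 libraries in R 4.3.3, with TMM factors, the quasi-likelihood test (two-sided) and the time point as the only term. Adjusted p values are Benjamini-Hochberg values over all genes tested. A second model added the animal and tested its terms together, a test chosen after seeing the data. Both were also run on simulated counts drawn independently for each library, with no outlying library. That run cannot show how outlying libraries move the calls. Intervals are at 95%. Same-numbered libraries are the same pig (the authors' sample sheet gives pigs 3, 10, 12, 8, 4 and 6 for replicates 1 to 6), and their deviations from the time point means had a median correlation of 0.169 (16 pairs, -0.345 to 0.732), against -0.0440 for different pigs (80 pairs, -0.635 to 0.520).

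The members and lists were chosen with earlier results of these data known. Values by library are given for called genes, the 4 of highest level in each role and the best known genes of each role. The fits were repeated with the animal as a block, with DESeq2 1.42.0, with all 18 libraries, with 2 time points only, with each library left out, with RLE size factors, and with the filter of filterByExpr or none. Fits without the 2 libraries of lowest TMM factor and without each animal were added after seeing the data. Counting limits cover counting error only. Sequences and promoter motifs are not analysed here. The values of 1 gene of the wider list are not reported here.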

Additional observations from a re-analysis of the deposited data

Results flagged for a closer look

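In 6 of 93 groups of libraries checked, 1 library stood far from the others of its time point, and chance alone marks about 1 in 20 groups. Of these, 4 were Baseline replicate 5, with HBB at 776 CPM, FECH at 45.4 CPM, TRIM58 at 28.8 CPM and TFRC at 18.9 CPM. The other 2 were CS replicate 1, with SPTB at 93.3 CPM and SLC25A37 at 51.3 CPM. For HBB and FECH the CS and pVAD libraries of replicate 5 were also the highest of their time points. Baseline replicate 5 has the fewest counts of the 17 libraries, 18229243. Before TMM scaling, HBB took 0.0643% of the counts in Baseline replicate 5 and 0.0593% in Baseline replicate 3. The TMM factors of these 2 libraries were 0.829 and 1.46, so the distance of the HBB level depends on them. CS replicate 1 had 182 CPM of summed neutrophil and monocyte markers, the most of any library. The part of these in the levels was not tested.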

How the results depend on the processing

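None of the 2325 alternatives run for single genes of the set turned a called change around. In 210 of them a change that was not called took the other sign, 4 lost the call of SLC25A37 in pVAD vs. CS and 13 added a call. In CS vs. Baseline 1 gene of the set was called by DESeq2 (ACKR1) and 1 with the replicate block (CA2), and 0 to 1 with a library left out. In pVAD vs. CS the single call became 2 with DESeq2, 0 with all 18 libraries, 0 with the replicate block and 3 without the 2 libraries of lowest TMM factor, and 0 to 2 with a library left out. pVAD vs. Baseline had 0 calls under every alternative. The block changed no other call of the set. Between animals the 10 genes became 1 with all 18 libraries, 4 without the 2 libraries of lowest TMM factor, 12 with DESeq2 and 3 to 11 with a library or an animal left out (5 without Baseline replicate 6, 6 without pVAD replicate 6). The cause was not tested.

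Over all genes, CS vs. Baseline called 486 to 1066 genes with a library left out (738 with all), pVAD vs. CS 388 to 999 (635) and pVAD vs. Baseline 180 to 422 (218), and 110 for the last with filterByExpr. Genes that differed between animals went from 3509 to 6144 with DESeq2, 49 with all 18 libraries, 1252 without the 2 libraries of lowest TMM factor and 158 to 5178 with a library or an animal left out. The other red cell, heme and iron genes had 0 to 3 calls between time points with a library left out, 2 in CS vs. Baseline and 2 in pVAD vs. CS with all 18 libraries, and between animals 6 to 20 calls with a library or an animal left out, 0 with all 18 libraries and 24 with DESeq2. Depth limits ACKR1 most, with 69 reads over the CS libraries.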
